A study of Mus with 30 samples.

Results

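The messenger RNAs of Ccn2, Tgfb1 and Timp1 were followed in the hearts of C57BL/6 mice infused with angiotensin II (Ang II), a peptide hormone that constricts vessels and raises blood pressure. The transcripts were taken by their Ensembl identifiers, namely ENSMUST00000020171 for Ccn2 (also called Ctgf), ENSMUST00000002678 for Tgfb1 and ENSMUST00000009530 for Timp1. All 3 were listed in each of the 30 tables, among 36503 transcripts listed in any table and 28298 listed in every one. No table used here pairs Ensembl identifiers with gene symbols, so these 3 assignments were not checked against an annotation.

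TGF-β1, the product of Tgfb1, is a secreted growth factor that is stored in latent form in the extracellular matrix and, once activated, signals through SMAD proteins in fibroblasts and other cells. CCN2 is a matricellular protein whose gene responds to TGF-β and to mechanical load, and TIMP1 is a secreted inhibitor of the matrix metalloproteinases, the enzymes that degrade matrix. In the heart these genes are widely used as markers of fibrosis, and Ang II acting on its type 1 receptor is a classical trigger of that response.

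Each group held 5 mice, and each heart gave 1 library. The study's methods describe more mice per group for RNA sequencing than the 5 followed here. In the Ang II + ETH group, ethoxysanguinarine was given at 5 mg/kg/d during the infusion of Ang II at 500 ng/kg/min over 28 days. The Ang II + BAI group received baicalin and the Ang II + GAS group gastrodin, both at 5 mg/kg/d, and the Ang II + VAL group valsartan, a blocker of the Ang II type 1 receptor, at 10.4 mg/kg/d, all with the same infusion. The Ang II group received the infusion with saline as treatment, and the Control group saline in place of both. The study's methods describe male mice 8 weeks old for the Control, Ang II and gastrodin groups, and the left of 3 longitudinal parts of the heart was used for RNA. The tissue is a mixture of cell types, so fewer cells that use a gene and less RNA per cell cannot be told apart.

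The values are 1 number per transcript and mouse. Their unit is not stated and they were read as FPKM, a level scaled for transcript length and library size. The values of a library summed to between 562189 and 654188, and between 16808 and 20446 transcripts reached 1 FPKM. The sequencing depth is unknown, and the number of mice limits the precision. As the other identifiers carry no gene names here, the remaining genes of the TGF-β pathway, the CCN, TIMP and MMP families and the markers of the cell types of the heart were not analysed, and the tissue was not checked against its markers.

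In the GRCm38 assembly (mm10), RefSeq places Ccn2 at chr10:24595442-24598683, Tgfb1 at chr7:25687002-25705077 and Timp1 at chrX:20870166-20874737. All 4572 bases of Timp1 lie within the span of another protein-coding gene, Syn1, and 362 bases of Ccn2 are shared with the lncRNA Gm15270. The sources used here do not say whether reads were assigned by strand, so reads of Timp1 and Syn1 may not have been told apart.

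Across all 30 mice, Ccn2 was the most abundant of the 3. It lay between 15.3 and 69.3 FPKM with a median of 28.0, and its mean level on log2(FPKM + 1) was higher than that of 95.9% of the 24844 transcripts that were in every table and reached 1 FPKM in at least 5 libraries. Tgfb1 lay between 7.57 and 18.5 FPKM with a median of 12.5, above 90.3% of these transcripts. Timp1 was low, with values of up to 4.05 FPKM, a median of 1.34 and 12 of 30 mice below 1 FPKM. Its mean level on log2(FPKM + 1) was above 33.0% of these transcripts. It was listed at 0 in Control mouse 5155 and in Ang II + BAI mouse 5140. An exact 0 in these files may be a failed estimate, as 167 of 3125 transcripts with a median of 10 FPKM or more were also listed at 0 in at least 1 mouse. At the level of Timp1 a 0 was more frequent. Of 3367 transcripts with a median within 0.25 FPKM of its own, 1085 (32.2%) were listed at 0 in at least 1 mouse. For Timp1 each value is therefore given, and no mean FPKM. Its log2 fold changes and the order of its groups do rest on means of log2(FPKM + 1) that include the 0 values.

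Within groups, Ccn2 varied widely between mice. The SD of its log2(FPKM + 1) values around the group means was 0.53, against a median of 0.21 for 761 transcripts of a similar level (within 0.5 on the log2 scale), and 77.3% of these had a smaller SD. For Tgfb1 the SD was 0.26, against a median of 0.29 for 1718 transcripts of a similar level. For Timp1 it was 0.58, against 0.46 for 12601 transcripts. Tgfb1 was thus the steadiest of the 3 on this scale.

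**Figure D1:**
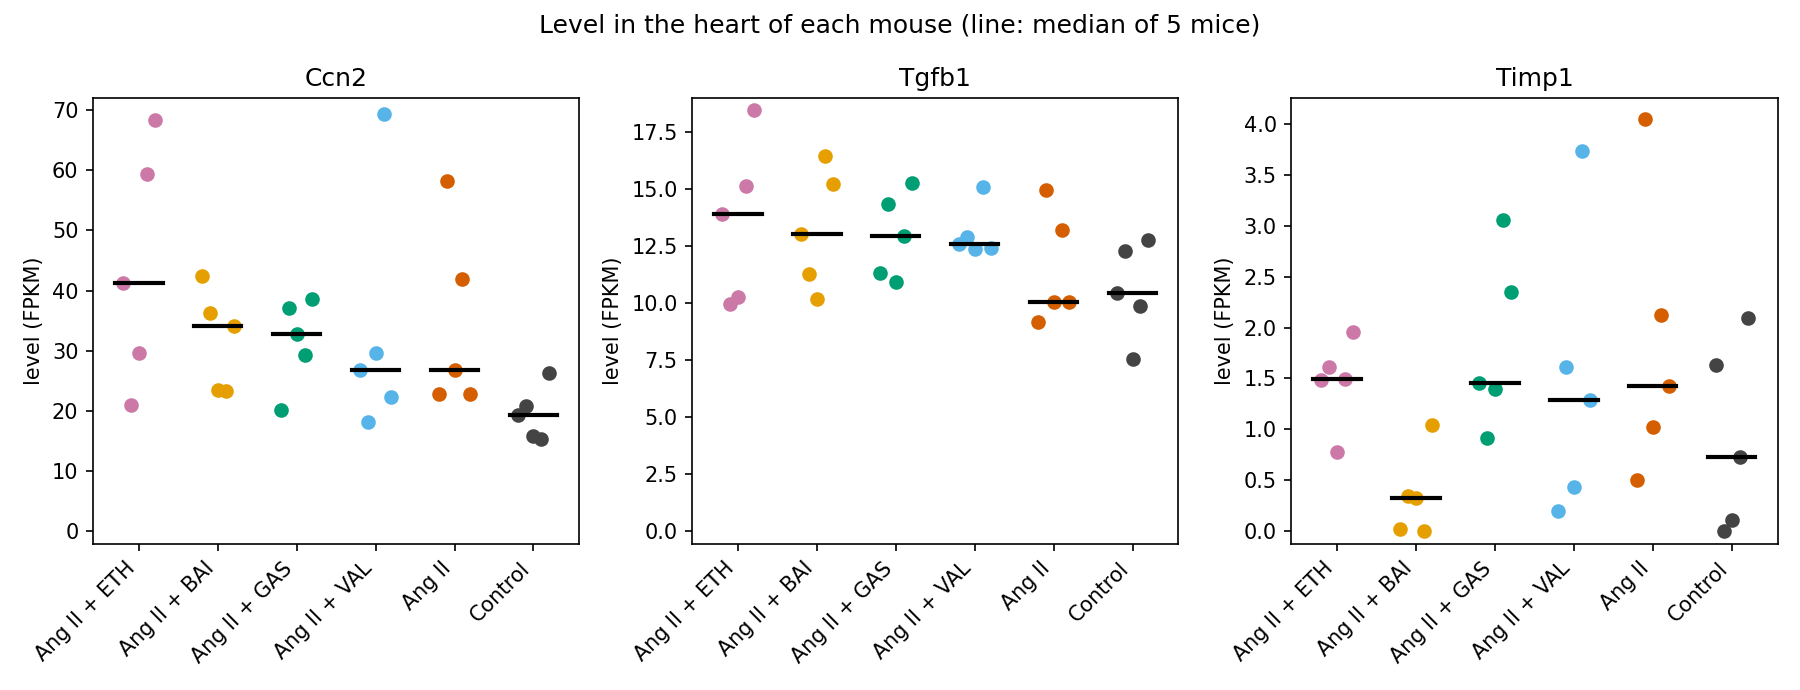
Level of Ccn2, Tgfb1 and Timp1 by group, in FPKM on linear vertical axes that differ between the 3 genes. Each point is 1 of 5 mice and each line the median of the group. The median of Ccn2 was lowest in the Control group (19.3 FPKM), whereas Timp1 was lowest in the Ang II + BAI group (0.326 FPKM).

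Ccn2, the matricellular gene, had higher group means in all 5 groups infused with Ang II than in the saline-infused Control hearts, but no difference passed after adjustment over all transcripts tested. In Ang II hearts the 5 mice had 22.7, 22.8, 26.8, 41.8 and 58.1 FPKM of Ccn2, against 15.3, 15.9, 19.3, 20.8 and 26.2 FPKM in Control hearts. The groups overlapped, with 3 of 5 Ang II mice above the highest Control mouse. Ang II hearts averaged 34.5 ± 15.4 FPKM and Control hearts 19.5 ± 4.40 FPKM (SD, n = 5 each). The groups showed a 1.64-fold difference on FPKM + 1, with a log2 fold change of 0.72 (standard error 0.27, 95% interval 0.11 to 1.32) and an adjusted p of 0.490 from limma. The unadjusted limma p was 0.0247, a threshold of 0.05 that 4.61% of the 18354 transcripts tested passed as higher in this comparison, while 0.0381% were called in either direction at an adjusted p under 0.05. Without Ang II mouse 5128, the highest of its group, the log2 fold change was 0.51, and the unadjusted limma p was between 0.0553 and 0.0592 without any one of Ang II mouse 5161 and Control mice 5116 and 5193.

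The hearts of mice given a compound with Ang II showed the same position of Ccn2 relative to Control. In Ang II + ETH hearts Ccn2 was at 21.0, 29.6, 41.2, 59.4 and 68.3 FPKM, so that 4 of 5 mice lay above the highest Control mouse. The mean of 43.9 ± 19.8 FPKM (SD, n = 5) was the highest of the 6 groups, 2.04-fold above Control on FPKM + 1 (log2 fold change 1.03, standard error 0.31, limma unadjusted p = 0.00734, adjusted p = 0.308). In this comparison 4.44% of 18635 transcripts were higher at an unadjusted p under 0.05, and 0.225% were called after adjustment. In Ang II + BAI hearts the values were 23.4, 23.5, 34.2, 36.2 and 42.4 FPKM, and in Ang II + GAS hearts 20.2, 29.2, 32.8, 37.1 and 38.5 FPKM. These groups overlapped with Control in the lower mice only, as 3 of 5 and 4 of 5 mice were above the highest Control value. The log2 fold change against Control was 0.67 for Ang II + BAI (standard error 0.20, limma unadjusted p = 0.00824, adjusted p = 0.416) and 0.66 for Ang II + GAS (standard error 0.20, limma unadjusted p = 0.00782, adjusted p = 0.483). The background at an unadjusted p under 0.05 and a higher level was 2.81% of 18437 transcripts for baicalin and 3.75% of 18484 for gastrodin, with 0.0108% and 0.0703% called after adjustment in either direction. For baicalin that background depends on scaling, with 519 transcripts higher and 1031 lower as deposited and 859 and 774 after quantile normalization. In 1 fit of all 6 groups the standard error of Ccn2 against Control was 0.32. The limma unadjusted p in that fit was 0.0492 for Ang II + BAI, 0.0530 for Ang II + GAS and 0.00382 for Ang II + ETH.

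In Ang II + VAL hearts Ccn2 was at 18.2, 22.4, 26.7, 29.6 and 69.3 FPKM, and 1 mouse, 5124, stood far above the others. The log2 fold change against Control was 0.60 (standard error 0.32, 95% interval -0.11 to 1.31, limma unadjusted p = 0.0883, adjusted p = 0.890), and it was 0.30 without mouse 5124. In this comparison 0.0108% of 18594 transcripts were called after adjustment.

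Beside the Ang II group itself, no group given a compound differed in Ccn2 by more than the spread between mice. The log2 fold change was 0.32 for Ang II + ETH against Ang II (95% interval -0.50 to 1.14, limma adjusted p = 0.862). It was -0.05 for Ang II + BAI (95% interval -0.68 to 0.59, limma adjusted p = 0.972) and -0.06 for Ang II + GAS (95% interval -0.69 to 0.57, limma adjusted p = 0.981), and both signs turned after quantile normalization and after scaling without the 10 most abundant transcripts. It was -0.11 for Ang II + VAL against Ang II (95% interval -0.96 to 0.73, limma adjusted p = 0.971). The intervals span changes in Ccn2 of more than 1.4-fold in either direction, so effects of a compound up to at least that size were not excluded. Larger effects could also be missed with these mice, as the 2.04-fold difference of Ang II + ETH from Control did not pass after adjustment. The share of all transcripts called against the Ang II group after adjustment was 0.132% of 18242 for ETH, 0.0165% of 18140 for BAI, 0.0220% of 18155 for GAS and 0.0220% of 18196 for VAL, and no member was among them.

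Ordered by mean log2(FPKM + 1), Ccn2 was highest in Ang II + ETH, then in Ang II, Ang II + BAI, Ang II + GAS, Ang II + VAL and Control. No neighbours in this order differed beyond their spread, with exact permutation p-values between 0.0873 (Ang II + VAL and Control) and 0.944 (two-sided, 5 mice against 5, where 0.00794 is the smallest p possible). Neighbours in a sorted order are the closest groups by choice. Over all 15 pairs, 4 had an exact permutation p under 0.05, all with Control lower. These p-values lay between 0.0159 (Ang II + ETH) and 0.0317 (Ang II), or 0.179 and 0.204 after adjustment over 45 tests. By the medians, Ang II + BAI (34.2 FPKM) and Ang II + GAS (32.8 FPKM) stood above Ang II (26.8 FPKM).

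Tgfb1, the growth factor gene, passed the adjusted threshold in none of the comparisons, and its groups overlapped throughout. The 5 Ang II mice had 9.17, 10.1, 10.1, 13.2 and 14.9 FPKM, against 7.57, 9.87, 10.5, 12.3 and 12.8 FPKM in Control mice, and most of both ranges was shared. Ang II hearts averaged 11.5 ± 2.47 FPKM and Control hearts 10.6 ± 2.08 FPKM (SD, n = 5 each), with a log2 fold change of 0.11 (95% interval -0.28 to 0.49, limma adjusted p = 0.881). Without Ang II mouse 5128 it was 0.013, and without Control mouse 5116 it was 0.0025.

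The groups given a compound had Tgfb1 means between 13.0 and 13.5 FPKM, all slightly above the Ang II mean. In Ang II + ETH hearts the values were 9.94, 10.3, 13.9, 15.1 and 18.5 FPKM, and in Ang II + BAI hearts 10.2, 11.3, 13.0, 15.2 and 16.4 FPKM. In Ang II + GAS hearts they were 10.9, 11.3, 12.9, 14.4 and 15.3 FPKM. The 5 Ang II + VAL mice were the most uniform, with 12.4, 12.4, 12.6, 12.9 and 15.1 FPKM (13.1 ± 1.15, SD, n = 5), and mouse 5124 was again the highest. Against Ang II the log2 fold changes of Tgfb1 were between 0.17 and 0.21 for the 4 compounds, with limma adjusted p-values between 0.769 and 0.875. Against Control they were 0.31 for Ang II + ETH, 0.30 for Ang II + BAI and Ang II + VAL and 0.28 for Ang II + GAS, with limma adjusted p-values between 0.669 and 0.887. These comparisons share the Ang II or the Control mice and are not independent of each other.

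In the order of mean log2(FPKM + 1), Tgfb1 was highest in Ang II + ETH, then in Ang II + VAL, Ang II + BAI, Ang II + GAS, Ang II and Control. The 4 highest groups lay within 0.04 of each other on that scale. Neighbours in this order had exact permutation p-values between 0.270 and 0.992, so none differed beyond their spread. Over all 15 pairs the lowest exact permutation p was 0.0556, for Ang II + VAL and Control (0.3125 after adjustment over 45 tests).

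Timp1, the metalloproteinase inhibitor, was lowest in the hearts given baicalin. In Ang II + BAI hearts it was listed at 0, 0.0177, 0.326, 0.344 and 1.04 FPKM, against 0.501, 1.03, 1.43, 2.13 and 4.05 FPKM in Ang II hearts. The groups overlapped, since the highest Ang II + BAI mouse (5133) lay above the 2 lowest Ang II mice. The log2 fold change was -0.99 (standard error 0.33, 95% interval -1.73 to -0.26) with an unadjusted limma p of 0.0130, and it did not pass after adjustment (limma adjusted p = 0.370). In this comparison 6.73% of the transcripts tested were lower at an unadjusted p under 0.05. That share depends on scaling, with 548 transcripts higher and 1221 lower as deposited and 783 and 813 after quantile normalization, where Timp1 had a log2 fold change of -0.89. With a pseudocount of 0.1 in place of 1 it was -2.37, and the limma adjusted p was 0.392. Timp1 only just met the filter of 1 FPKM in 5 libraries, with 4 Ang II mice and 1 Ang II + BAI mouse. It was thus tested mainly through the group where it was high, which limits the reading of its p-values. Without the filter the log2 fold change was the same, with a limma adjusted p of 0.468. In 5 of the 10 repeats that left out 1 mouse, Timp1 fell below this filter and was not tested.

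In the other compound groups Timp1 did not differ from the Ang II group beyond the spread between mice. The Ang II + ETH mice had 0.780, 1.49, 1.50, 1.61 and 1.95 FPKM, and the Ang II + GAS mice 0.913, 1.39, 1.45, 2.35 and 3.06 FPKM. The Ang II + VAL mice had 0.202, 0.438, 1.29, 1.61 and 3.73 FPKM, a wide range with mouse 5124 the highest. Against Ang II the log2 fold change of Timp1 was -0.09 for Ang II + ETH (95% interval -0.76 to 0.59, limma adjusted p = 0.965), 0.08 for Ang II + GAS (95% interval -0.66 to 0.82, limma adjusted p = 0.976) and -0.25 for Ang II + VAL (95% interval -1.19 to 0.69, limma adjusted p = 0.937). At the shared dose of 5 mg/kg/d, 4 of 5 Ang II + BAI mice lay below every Ang II + ETH and Ang II + GAS mouse, and mouse 5133 overlapped with both groups. This count was made after the values were seen. The compounds were not compared with each other across all transcripts, so the share of transcripts that separate in this way is not known.

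Control mice had Timp1 at 0 (listed), 0.111, 0.725, 1.63 and 2.10 FPKM, a range that covers most mice of the other groups. The log2 fold change of Ang II minus Control was 0.58 (standard error 0.41, 95% interval -0.33 to 1.49, limma adjusted p = 0.717). For Ang II + ETH minus Control it was 0.49, for Ang II + GAS minus Control 0.66 and for Ang II + VAL minus Control 0.33, with limma adjusted p-values between 0.691 and 0.957. In Ang II + BAI and Control together too few mice reached 1 FPKM for a test, and without the filter the log2 fold change was -0.42 (95% interval -1.19 to 0.36, limma adjusted p = 0.858). In the order of mean log2(FPKM + 1), which ran from Ang II + GAS over Ang II, Ang II + ETH, Ang II + VAL and Control to Ang II + BAI, neighbours had exact permutation p-values between 0.302 and 0.802. Such neighbours are the closest groups by choice. Over all 15 pairs, 3 had an exact permutation p under 0.05, each with Ang II + BAI lower. It was 0.0159 against Ang II + ETH and Ang II + GAS and 0.0238 against Ang II (each 0.179 after adjustment over 45 tests).

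**Figure D2:**
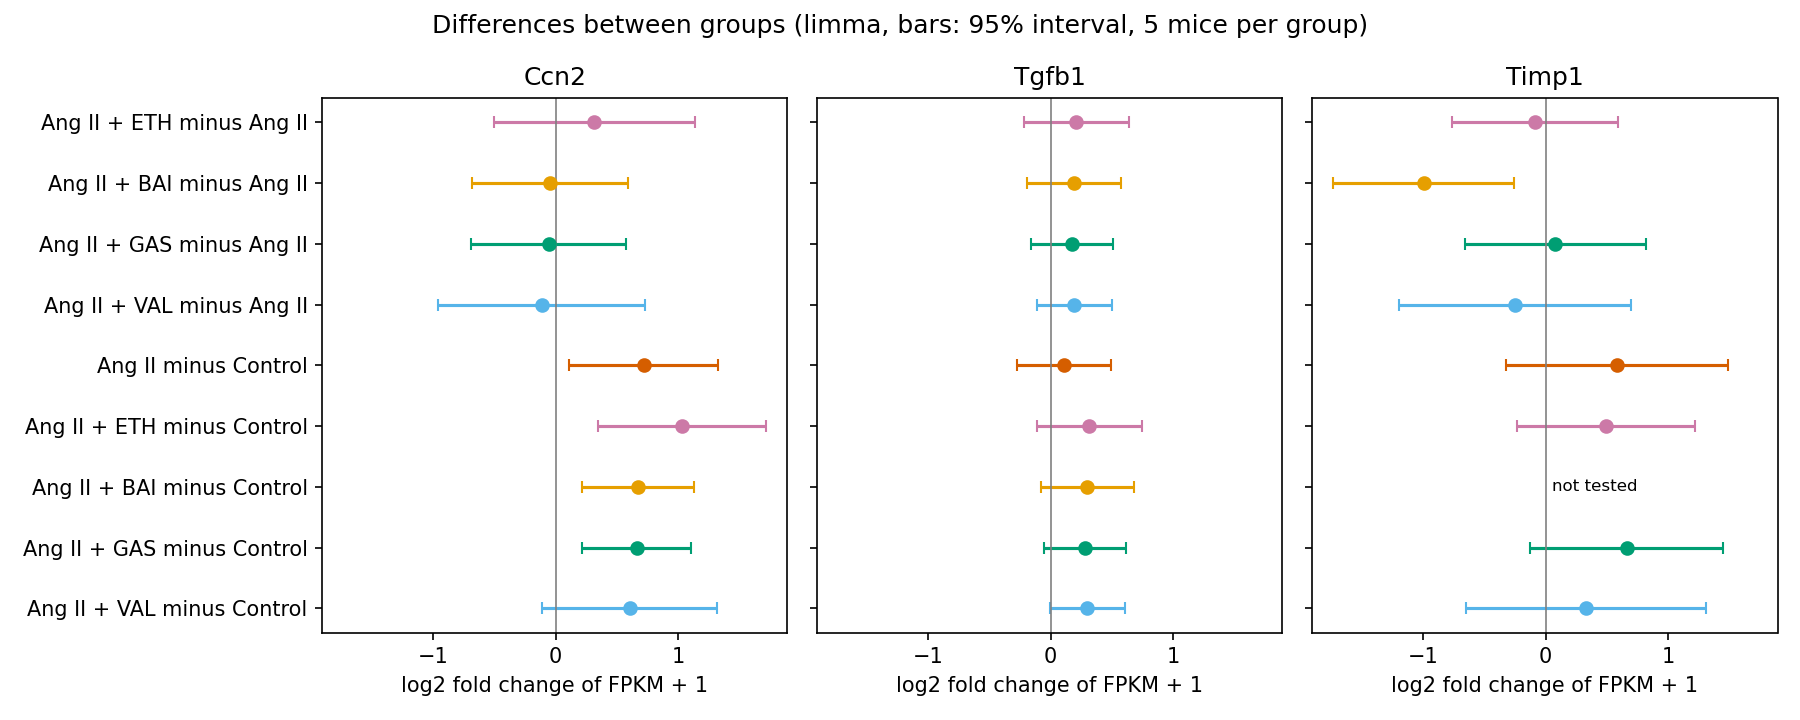
Log2 fold change of FPKM + 1 (horizontal axis) for each comparison of 2 groups of 5 mice, with the 95% interval from limma. For Ccn2 the point of each comparison with Control lies above 0, from 0.60 to 1.03, and for Timp1 the Ang II + BAI minus Ang II interval lies below 0. None of these passed the adjusted threshold, and in that comparison Timp1 met the filter mainly through the Ang II mice.

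Over the 9 comparisons, 26 tests of a member could be made with limma. None had an adjusted p under 0.05, and 5 had an unadjusted p under 0.05, 4 of them for Ccn2 as higher than in Control and 1 for Timp1 as lower. The 4 comparisons of Ccn2 share the Control mice, and Timp1 met the filter mainly through the Ang II mice, where it was high. At that unadjusted threshold, in either direction, the share of all transcripts tested was 9.13% for Ang II minus Control, and 8.29% for ETH, 9.75% for BAI, 6.21% for GAS and 6.23% for VAL against Ang II. Against Control it was 8.88% for ETH, 8.41% for BAI, 7.68% for GAS and 5.62% for VAL. Chosen after these values were seen, the mean of the 5 infused groups was also compared with Control in 1 fit of all mice. Of the 25 infused mice, 17 lay above the highest Control mouse for Ccn2 and none below the lowest. The log2 fold change of Ccn2 was 0.74 (standard error 0.25, 95% interval 0.22 to 1.25), with an exact permutation p of 0.00645 over all 142506 choices of 5 mice (two-sided). Across the 24844 transcripts of that fit the unadjusted limma p was 0.00706 and the adjusted p 0.262, where 0.451% of transcripts were called after adjustment and 4.11% were higher at an unadjusted p under 0.05 (9.72% in either direction). For Tgfb1, 13 of 25 infused mice lay above the highest Control mouse, and the log2 fold change was 0.26 (95% interval -0.0011 to 0.52, limma adjusted p = 0.517, exact permutation p = 0.0436). For Timp1, 5 of 25 did, with a log2 fold change of 0.33 (limma adjusted p = 0.765, exact permutation p = 0.311).

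Mice with more Ccn2 also had more Tgfb1. Over all 30 mice their log2(FPKM + 1) values had a Pearson r of 0.71 (permutation p = 3e-05, adjusted over 3 pairs 9e-05) and a Spearman rho of 0.69 (permutation p = 6e-05, adjusted 0.00018). The relation held within groups, with r = 0.70 after each value was centred on its group mean (permutation within groups, p = 9e-05), and r was 0.64 without mice 5124 and 5125, the farthest from the median of Ccn2. The mice with the most Ccn2, namely Ang II + VAL mouse 5124, Ang II + ETH mice 5125 and 5123 and Ang II mouse 5128, also had at least 14.9 FPKM of Tgfb1. Ang II + BAI mouse 5140 went against the relation, with 16.4 FPKM of Tgfb1 and 23.4 FPKM of Ccn2.

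Relations with Timp1 were weaker. For Ccn2 and Timp1, r was 0.45 (permutation p = 0.0131, adjusted 0.0197) and rho 0.35 (permutation p = 0.0604, adjusted 0.0604). Without mice 5124 and 5125 r was 0.33 (permutation p = 0.0864). With all mice and a pseudocount of 0.1 it was 0.37 (adjusted permutation p = 0.0658). Its passing of the threshold thus depends on these 2 mice, on the pseudocount and on the use of r rather than rho. For Tgfb1 and Timp1, r was 0.35 (permutation p = 0.0605, adjusted 0.0605) and rho 0.36 (permutation p = 0.0487, adjusted 0.0604), and r was 0.23 without mice 5116 and 5125. Centred on group means, r was 0.48 for Ccn2 and Timp1 and 0.46 for Tgfb1 and Timp1 (permutation within groups, p = 0.0149 and p = 0.00959).

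**Figure D3:**
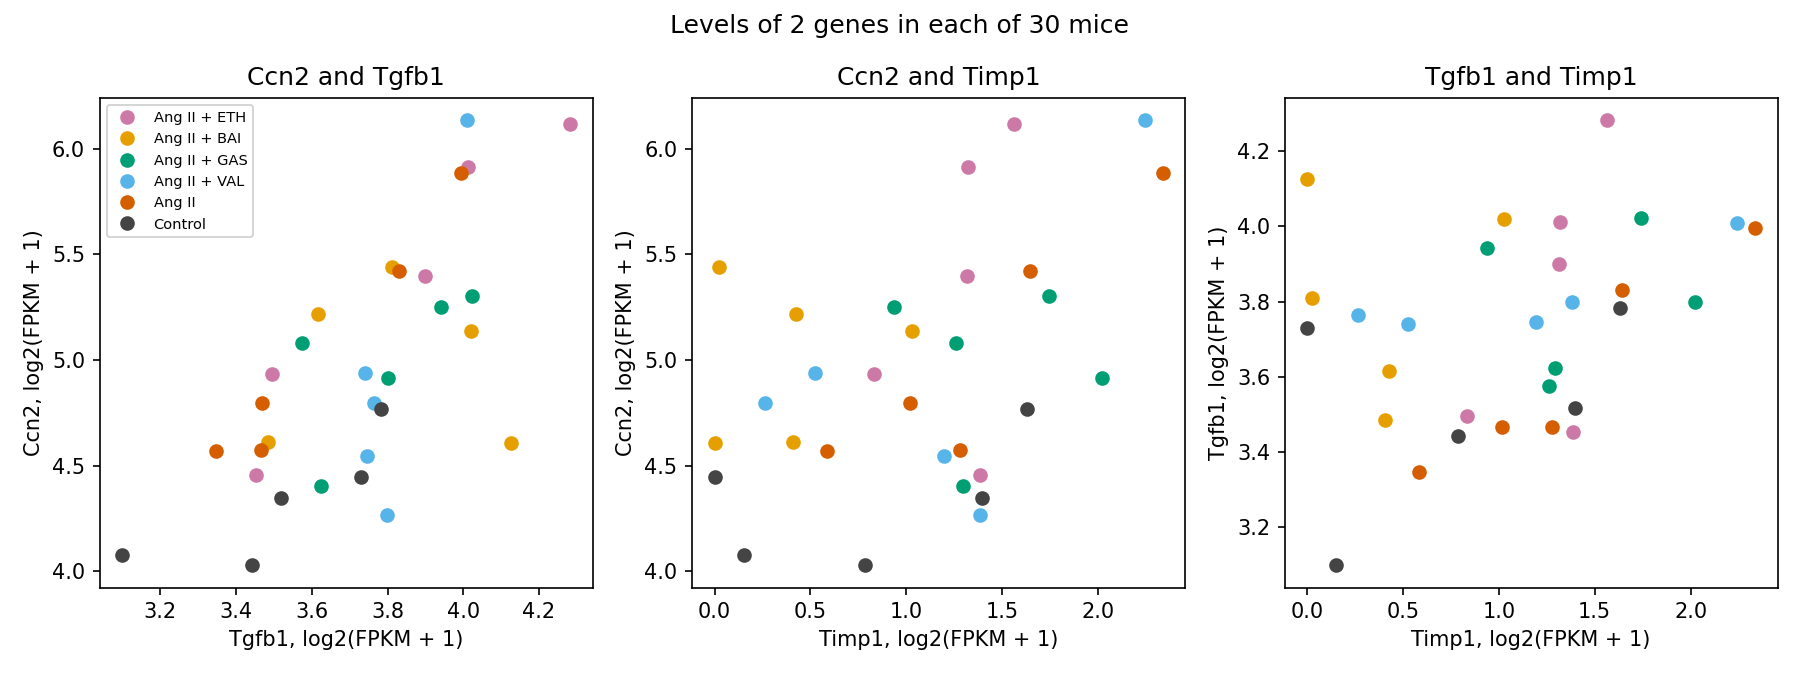
Levels of 2 genes in each of the 30 mice, both axes in log2(FPKM + 1), with 1 point per mouse and a colour per group. In the plot of Ccn2 and Tgfb1 the points rise together (r = 0.71), whereas the 3 mice with Timp1 below 0.1 FPKM have Ccn2 between 20.8 and 42.4 FPKM.

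Some properties of the libraries went with these levels, and their part in the relation of Ccn2 and Tgfb1 was not tested beyond the rescaled values given here. In relations added after the data were seen, Tgfb1 was higher in libraries with more transcripts at 1 FPKM or more (r = 0.46, permutation p = 0.00956, adjusted over 9 relations 0.0430, rho = 0.45, permutation p = 0.0141, adjusted 0.0634). Centred on group means, r was 0.59, and without the 2 libraries farthest from the median it was 0.53. Tgfb1 was also higher in libraries with a smaller sum of values (r = -0.50, permutation p = 0.00536, adjusted 0.0430, rho = -0.46, permutation p = 0.0124, adjusted 0.0634), with r = -0.53 centred on group means and -0.45 without the 2 libraries farthest from the median. For Ccn2 the relation with the sum had r = -0.37 (permutation p = 0.0438, adjusted 0.131, rho = -0.25, permutation p = 0.182), with r = -0.42 centred on group means and -0.34 without the 2 libraries farthest from the median. For Ccn2 the relation with the number of transcripts had r = 0.28 over all mice (permutation p = 0.132, adjusted 0.229, rho = 0.25, permutation p = 0.188). Centred on group means, r was 0.45 (permutation within groups, p = 0.0119, adjusted 0.0356) and rho 0.39 (permutation within groups, p = 0.0398, adjusted 0.120). Without the 2 libraries farthest from the median, r was 0.44 (permutation p = 0.0194, adjusted 0.0582). Ang II + ETH mouse 5125 and Ang II + VAL mouse 5124, the 2 mice with the most Ccn2, had 19661 and 19656 such transcripts. Control mice 5153 and 5155, the highest of their group in Ccn2 with 26.2 and 20.8 FPKM, had 20446 and 19682. Ccn2 and Tgfb1 kept an r of 0.70 when each library was scaled to its sum without the 10 most abundant transcripts, and of 0.69 after quantile normalization.

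Among 18559 other Ensembl transcripts, Tgfb1 ranked 22nd by its Pearson r with Ccn2, and Ccn2 ranked 38th by its r with Tgfb1. The transcript most like Ccn2 over the 30 mice was ENSMUST00000020220 (r = 0.85, or 0.81 within groups), at 3.53 to 11.8 FPKM. The one most like Tgfb1 was ENSMUST00000078482 (r = 0.82, or 0.79 within groups), at 1.33 to 2.98 FPKM. The one most like Timp1 was ENSMUST00000204861 (r = 0.75, or 0.70 within groups), at 0.134 to 1.70 FPKM. These values are descriptions, as the transcripts were picked for their likeness among all those compared, and no gene name is given for them here.

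The ratio of Ccn2 to Tgfb1 within a mouse does not change with the scaling of a library. In Ang II hearts it lay between 2.27 and 3.89 with a median of 2.66, against 1.55 to 2.10 with a median of 1.85 in Control hearts, so the groups did not overlap. In Ang II + ETH hearts it lay between 2.11 and 3.92 (median 2.96), just above the highest Control ratio. Of the single transcripts tested, 1.13% lay without overlap above Control in Ang II hearts and 1.36% in Ang II + ETH hearts. These shares are not a background for a ratio of transcripts, for which none was computed. The Ang II + BAI ratio was 1.42 to 3.26 (median 2.30), the Ang II + GAS ratio 1.78 to 3.01 (median 2.52) and the Ang II + VAL ratio 1.41 to 4.59 (median 2.12), and all of these overlapped with Control. The mice with the most Ccn2 (5124, 5125, 5123 and 5128) also had the highest ratios, at 4.59, 3.70, 3.92 and 3.89. The ratio is thus not independent of the level of Ccn2. It was chosen after the values were seen and was not tested.

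**Figure D4:**
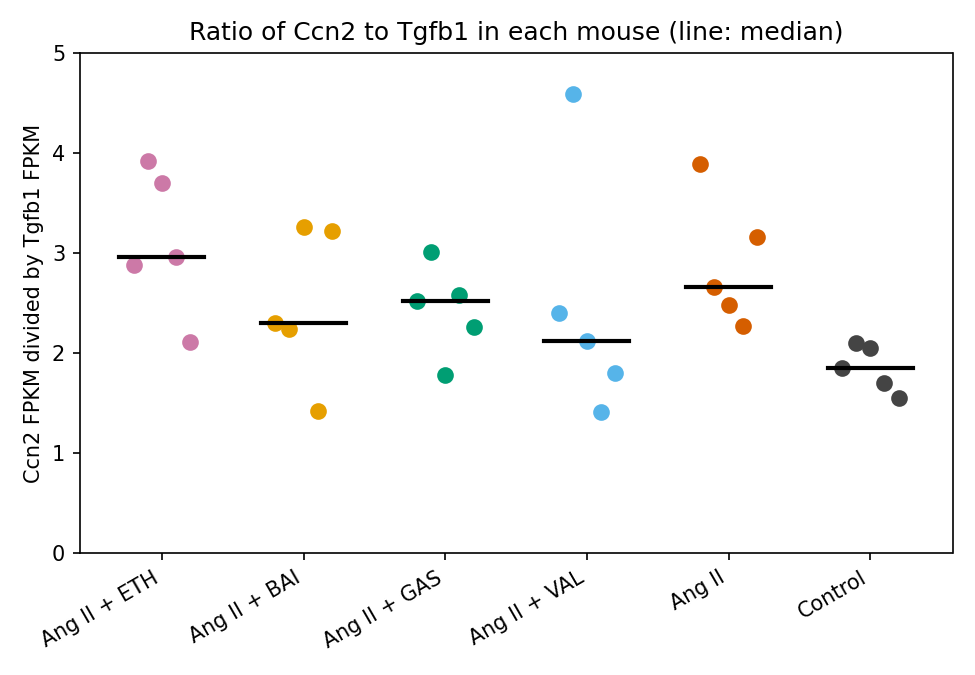
Ccn2 FPKM divided by Tgfb1 FPKM in each mouse (vertical axis, linear from 0), with 5 points per group and a line at the median. The 5 Ang II mice lie between 2.27 and 3.89, above the 5 Control mice at 1.55 to 2.10. The ratio was chosen after the values were seen and was not tested.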

How the data were processed

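Each mouse has its own table, in which the authors deposited 1 fractional value per transcript. These were taken as FPKM because their sums are unequal across mice. No unit, aligner, quantifier or annotation was stated in the labels, headers or methods (not given in the sources used here), nor was a depth. In their processing notes the submitters list mm10 and limma, whereas DESeq is the tool in the paper's methods. Libraries were made from RNA depleted of ribosomal RNA. Counts were not recovered, so no count model was used. From the deposited FPKM, log2(FPKM + 1) was tested with limma 3.58.1 in R 4.3.3 (mean-variance trend, two-sided, the 5 and 5 mice compared, keeping transcripts that reached 1 FPKM in 5 or more of them). Benjamini-Hochberg adjustment covered every transcript in a fit. Exact permutation tests and correlations (100000 permutations) were run in Python 3.11.15 with numpy 2.4.6. Scripts were tested on simulated data. The labels give no batch. The members, lists and tests were chosen with earlier results of these data known. The exact permutation p-values of single genes are not adjusted for the number of genes or groups compared, except where a value adjusted over 45 tests is printed. Exact permutation tests of groups were run on the members only. RefSeq symbols gave coordinates (GRCm38.p6). That table lists 0 Ensembl identifiers, so the pathway and cell type lists, promoter motifs and protein sequences were not used here. Beside the members, the text names the transcript with the highest Pearson r with each. Alternatives were a pseudocount of 0.1, no filter, quantile normalization, all 6 groups in 1 fit and each mouse left out. Scaling without the 10 most abundant transcripts was chosen after seeing the data. So were the pooled comparison of infused mice, the relations with library measures and the ratio.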

Additional observations from a re-analysis of the deposited data

Results flagged for a closer look

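In 18 checks of the FPKM of a gene in a group of 5 mice, 2 values stood well apart from the other 4 mice, and chance marks about 1 in 20 such groups. The checks were not repeated on log2(FPKM + 1), the scale of the tests, and the 2 values are not independent. Both came from Ang II + VAL mouse 5124, with 69.3 FPKM of Ccn2 against 18.2 to 29.6 FPKM in the other mice given valsartan, and 15.1 FPKM of Tgfb1 against 12.4 to 12.9 FPKM. In its library 19656 transcripts reached 1 FPKM, whereas in the other 4 libraries 17576 to 18457 did, and the part of this in the 2 values was not tested. Without mouse 5124 the log2 fold change of Ccn2 was -0.41 for Ang II + VAL minus Ang II (-0.11 with it) and 0.30 for Ang II + VAL minus Control (0.60 with it), and that of Tgfb1 was 0.14 and 0.25 (0.19 and 0.30 with it).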

How the results depend on the processing

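No member passed an adjusted p of 0.05 in any of 409 limma fits over the alternatives, where the lowest adjusted p was 0.131 (Ccn2, Ang II + ETH minus Control, without ETH mouse 5164). The sign of Ccn2 turned for Ang II + BAI minus Ang II after quantile normalization (0.083) and scaling without the 10 most abundant transcripts (0.11), and for Ang II + GAS minus Ang II (0.011 and 0.020), and the cause was not tested. With each mouse left out, Ccn2 ranged from -0.17 to 0.16 for Ang II + BAI, from -0.18 to 0.15 for Ang II + GAS and from -0.41 to 0.10 for Ang II + VAL, and Timp1 from -0.29 to 0.15 for Ang II + ETH and from -0.12 to 0.32 for Ang II + GAS, all minus Ang II. The relation of Ccn2 and Timp1 was weaker with a pseudocount of 0.1 (r = 0.37, adjusted permutation p = 0.0658) and without mice 5124 and 5125 (r = 0.33), and that of Tgfb1 and Timp1 was stronger centred on group means (r = 0.46).

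The number of transcripts called at an adjusted p under 0.05 (limma) was 7 for Ang II minus Control, with 30 in 1 fit of all 6 groups and 0 to 13 with each mouse left out. For Ang II + ETH minus Ang II it was 24, with 10 in 1 fit and 11 to 42. For Ang II + BAI minus Ang II it was 3, with 0 at a pseudocount of 0.1 (1700 at an unadjusted p under 0.05), 1 after quantile normalization, 54 in 1 fit, 6 after the added scaling and 0 to 7. For Ang II + GAS minus Ang II it was 4, with 0 in 1 fit (1460 unadjusted) and 2 to 11. For Ang II + VAL minus Ang II it was 4, with 2 at a pseudocount of 0.1, 1 in 1 fit and 0 to 6. For Ang II + ETH minus Control it was 42, with 83 after quantile normalization, 78 in 1 fit and 17 to 31. For Ang II + BAI minus Control it was 2, with 1 at a pseudocount of 0.1 and without the filter, 6 after quantile normalization, 48 in 1 fit, 5 after the added scaling and 0 to 12. For Ang II + GAS minus Control it was 13, with 7 in 1 fit and 3 to 14. For Ang II + VAL minus Control it was 2, with 0 at a pseudocount of 0.1 (974 unadjusted), 1 in 1 fit and 0 to 8. For all infused mice minus Control it was 112, with 194 after quantile normalization and 43 to 108 without 1 Control mouse.

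No paired analysis was possible because nothing in the labels links mice across groups.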
